A study of Mus musculus with 24 samples.

Results

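Chemokines were followed as a family in bulk RNASeq of cultured primary osteoblasts (OBs). The 38 genes were taken by name alone, as every row whose symbol begins with Ccl, Cxcl, Cx3cl or Xcl followed by its number, out of 55335 genes counted in each library. Of these 38, 22 had enough reads to be tested, 13 had a mean of at least 50 counts per library, and 5 (*Xcl1*, *Ccl21a*, *Ccl21b*, *Ccl26* and *Ccl1*) had no count in any of the 24 libraries. The OBs came from parietal bones of mouse pups aged 4 to 5 days on a C57BL/6J background. WT pups carried no targeted allele, and Het pups carried 1 copy of G610C, which puts cysteine in place of a helix glycine of the procollagen α2(I) chain (*Col1a2*) and models osteogenesis imperfecta. The allele changes 1 codon and no gene is removed, so gene counts cannot check the genotype labels. Both genotypes were grown in the same osteogenic medium with ascorbic acid 2-phosphate, and 4 libraries per genotype were made at each of days 8, 14 and 21 after seeding. Wells of a genotype were plated from cells combined over pups, so p-values do not measure the spread between single animals. They measure the spread between wells and, where a fit pools preparations, also the spread between preparations.

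Chemokines are small secreted or membrane-anchored proteins that guide leukocytes along concentration gradients by binding G protein-coupled receptors. Homeostatic chemokines such as *Cxcl12* are made continuously by stromal cells and hold haematopoietic cells in the bone marrow, while inflammatory ones are switched on by NF-kB, interferons and other signals in stromal cells and in macrophages. In bone, *Cxcl12* from OB lineage cells and *Ccl2*, *Ccl3* and *Ccl9* from several sources are known for their part in the recruitment of monocytes and osteoclast precursors.

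Levels are given as a relative quantity (RQ), the count of a gene per 1000 counts of the geometric mean of *Actb*, *Actg1*, *Sdha* and *Mrfap1* in that library. Libraries held 17140202 to 59734231 counts, and the chemokine genes together took 0.0182% to 0.0618% of them. A count of 3 corresponded to an RQ of 0.0969 to 0.340 depending on the library. Replicate 1 was shallower than the others in every group, with 17140202 to 25825762 counts against 28159342 to 59734231 for replicates 2 to 4. It also stood apart in expression. With genotype and day accounted for, 33% of 20434 genes were called higher and 6.8% lower in replicate 1 than in replicates 2 to 4 (15.2% and 16.7% with TMM scaling). The study ran more than one cell preparation, and by its methods these differed in litters, plating density and early oxygen level. The labels do not say which preparation a replicate number marks. Values are therefore given by replicate, or separately for replicate 1 and replicates 2 to 4, where the results turn on it. The OB markers *Col1a1*, *Runx2*, *Sp7*, *Ibsp*, *Alpl*, *Bglap*, *Ifitm5* and *Dmp1* summed to RQ of 17438 to 186504, as labelled, but the cultures also held transcripts of macrophages (17 markers, summed RQ of 261 to 20656) and of chondrocytes (4 markers, 1157 to 34404). In bulk RNA, more cells of a type and more RNA per cell cannot be told apart.

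Per kilobase of gene model, *Cxcl12*, the ligand of *Cxcr4*, had the highest mean RQ of the family, at 60.2 per kb. It was followed by *Cxcl14* at 35.7 and by *Cx3cl1*, which encodes the membrane-anchored fractalkine, at 29.3. *Cxcl12* alone gave 31.5% to 78.1% of all chemokine counts in a library. Next in order were *Ccl9* at 12.8, *Cxcl16* at 12.5, *Ccl2* at 7.88, *Ccl7* at 7.03, *Ccl5* at 6.59 and *Ccl3* at 4.44 RQ per kb. *Ccl24*, *Cxcl3*, *Ccl17*, *Cxcl13*, *Ccl22*, *Cxcl11*, *Cxcl17*, *Ccl11*, *Ccl20*, *Cxcl15* and *Ccl27b* had counts in some libraries, at most 12 in any, and were not tested. In GRCm38, 12 members lie on chromosome 11 and 11 on chromosome 5, not all of them side by side. Those on chromosome 11 include *Ccl2* (chr11:82035571-82037453), *Ccl9* (chr11:83572919-83578636) and *Ccl3* (chr11:83647844-83649355), and those on chromosome 5 include *Cxcl1* (chr5:90891241-90893115), *Cxcl2* (chr5:90903871-90905938) and *Cxcl10* (chr5:92346638-92348889). Exons of *Cxcl16*, *Ccl25*, *Ccl27a* and *Cxcl10* overlap exons of *Zmynd15*, *Elavl1*, *Il11ra1* and *Art3* on the other strand, and since the strand rule of the counting is not given, reads of the overlaps cannot be assigned to one gene with certainty.

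Promoters of 27 of the 38 members were in the RefSeq set used here (GRCm38.p6), each as 250 bases before and 50 bases after an annotated transcription start. Both strands were searched for the NF-kB consensus, which 4.51% of all 32851 promoters hold, and for the interferon response core GAAANNGAAA, which 3.44% hold. The 4 shown here belong to genes called higher in Het at days 14 and 21 and hold the NF-kB consensus. Of the 9 genes called there, 6 had a promoter in the set, and those of *Cxcl9* and *Ccl19* held no match to the NF-kB consensus. Capitals mark the matches to either motif. *Cxcl1* and *Cxcl2* are neighbours on chromosome 5, and each holds a single stretch that matches the NF-kB consensus on both strands, with its first base 71 and 97 bases before the start. *Cxcl10* holds matches to the NF-kB consensus 159 and 103 bases and to the interferon response core 213 bases before the start. *Ccl9* holds one NF-kB match 35 bases before the start. The promoters lie at chr5:90890995-90891294, plus strand (*Cxcl1*), chr5:90903649-90903948, plus strand (*Cxcl2*), chr5:92348840-92349139, minus strand (*Cxcl10*) and chr11:83578587-83578886, minus strand (*Ccl9*).
Cxcl1: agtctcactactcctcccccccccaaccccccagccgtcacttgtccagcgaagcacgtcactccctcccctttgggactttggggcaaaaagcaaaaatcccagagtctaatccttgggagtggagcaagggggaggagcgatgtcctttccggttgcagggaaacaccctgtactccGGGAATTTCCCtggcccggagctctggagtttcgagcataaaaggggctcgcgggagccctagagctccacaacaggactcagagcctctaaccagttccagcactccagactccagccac
Cxcl2: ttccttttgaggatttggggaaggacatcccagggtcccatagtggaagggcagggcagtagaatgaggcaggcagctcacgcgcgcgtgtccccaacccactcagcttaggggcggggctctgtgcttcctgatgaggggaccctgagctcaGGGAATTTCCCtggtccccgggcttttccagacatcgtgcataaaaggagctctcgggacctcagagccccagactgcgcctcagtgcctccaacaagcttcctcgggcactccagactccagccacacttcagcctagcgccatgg
Cxcl10: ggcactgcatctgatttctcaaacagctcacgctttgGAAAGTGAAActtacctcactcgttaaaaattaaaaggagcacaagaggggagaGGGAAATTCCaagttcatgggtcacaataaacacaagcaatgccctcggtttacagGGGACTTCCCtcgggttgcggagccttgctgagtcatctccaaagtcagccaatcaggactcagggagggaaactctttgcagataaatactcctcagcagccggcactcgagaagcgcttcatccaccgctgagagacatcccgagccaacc
Ccl9: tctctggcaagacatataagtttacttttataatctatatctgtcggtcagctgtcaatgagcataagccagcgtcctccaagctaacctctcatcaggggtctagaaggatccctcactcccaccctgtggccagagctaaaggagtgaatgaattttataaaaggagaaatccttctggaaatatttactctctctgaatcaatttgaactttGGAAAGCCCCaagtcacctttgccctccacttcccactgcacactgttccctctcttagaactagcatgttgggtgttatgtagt
Over the family, 7 members held the NF-kB consensus (the other three were *Ccl27a*, *Cxcl3* and *Ccl20*) and 3 held the interferon response core (*Cxcl10*, *Ccl19* and *Cxcl14*). A match says only that these letters are in the window.

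At days 14 and 21, a group of chemokine genes, most of them inflammatory, was higher in Het than in WT. Of the 22 tested, 9 were called higher and 0 lower, against 7.26% and 8.88% of the 19839 genes tested (12.4% and 7.48% with TMM scaling), by edgeR's quasi-likelihood test with day as a covariate and Benjamini-Hochberg adjustment over all genes tested. The median log2 fold change of the 22 was 0.74, and that of all genes tested was -0.05. The 9 genes were *Cxcl9*, *Ccl5*, *Cxcl2*, *Cxcl1*, *Cxcl10*, *Cxcl16*, *Ccl19*, *Ccl9* and *Ccl4*, with log2 fold changes from 0.96 to 2.53. At an unadjusted p under 0.05, 12 were higher and 1 lower, against 2479 and 3785 of the 19839 genes tested. DESeq2's Wald test called 11 higher and 1 (*Cxcl14*) lower, against 9.77% and 13% of all genes.

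*Cxcl9* and *Cxcl10*, ligands of *Cxcr3* that attract activated T cells and are induced by interferon, were both called, and *Cxcl9* had the highest fold change of the 22. RQ of *Cxcl9* in replicates 1 to 4 was 1.46, 0.570, 0.424 and 0.427 for WT and 0.113, 2.16, 4.96 and 9.05 for Het at day 14. At day 21 it was 0.851, 0.694, 0.159 and 0.473 for WT and 0.594, 4.63, 3.53 and 2.48 for Het. Replicates 2 to 4 of Het lay above every WT library on both days, while replicate 1 of Het lay below replicate 1 of WT. The fitted log2 fold change was 2.53 ± 0.57 (SE, adjusted p = 0.00908). RQ of *Cxcl10* was 4.66, 1.34, 0.887 and 1.81 for WT and 2.27, 2.76, 6.79 and 14.4 for Het at day 14, and 3.03, 2.78, 1.64 and 1.93 for WT and 2.08, 9.30, 4.01 and 5.47 for Het at day 21. The groups overlapped at both days when replicate 1 was included, and the log2 fold change was 1.43 ± 0.42 (SE, adjusted p = 0.0311).

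*Ccl5*, an attractant of T cells and monocytes made by many activated cells, was higher in Het in replicates 2 to 4. Its RQ was 0.822, 4.03, 1.81 and 2.24 for WT and 3.63, 7.37, 18.5 and 18.9 for Het at day 14, and 2.74, 4.37, 2.80 and 2.92 for WT and 3.07, 26.4, 18.4 and 19.5 for Het at day 21. All 6 Het libraries of replicates 2 to 4 were above all WT libraries, whereas replicate 1 of Het lay within the range of the WT libraries on both days. The log2 fold change was 2.41 ± 0.41 (SE, adjusted p = 0.00219). *Ccl9* and *Ccl4*, which encode macrophage inflammatory proteins, gave 1.09 ± 0.28 (SE, adjusted p = 0.0163) and 0.96 ± 0.29 (SE, adjusted p = 0.0365). For *Ccl9*, RQ was 28.3, 14.8, 14.2 and 18.9 for WT and 17.5, 81.1, 62.4 and 59.0 for Het at day 14, with replicate 1 of Het again below replicate 1 of WT.

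The ligands of *Cxcr2* that attract neutrophils were not all called. *Cxcl2* was called, with RQ of 0.274, 0.204, 0.270 and 0.320 for WT and 0.567, 2.83, 3.47 and 2.16 for Het at day 14 and a log2 fold change of 2.17 ± 0.38 (SE, adjusted p = 0.00279), and every Het library exceeded every WT library at that day. At day 21 RQ of *Cxcl2* was 1.32, 1.39, 1.69 and 0.906 for WT and 1.19, 4.94, 3.69 and 4.58 for Het, where replicate 1 of Het fell below 3 of the 4 WT libraries. *Cxcl1* was called too, at 1.47 ± 0.33 (SE, adjusted p = 0.00903), from levels near the counting floor (RQ of 0.639, 0.244, 0.193 and 0.604 for WT and 0.227, 0.670, 1.57 and 1.85 for Het at day 14). *Cxcl5* was not, at -0.15 ± 0.49 (SE, adjusted p = 0.886).

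*Cxcl16*, a membrane-anchored ligand of *Cxcr6* that also acts as a scavenger receptor, had the smallest adjusted p of the family. Its RQ was 27.6, 15.6, 13.3 and 19.0 for WT and 26.0, 62.3, 56.1 and 59.4 for Het at day 14, and 43.0, 45.8, 43.0 and 42.1 for WT and 51.4, 100.4, 90.6 and 127 for Het at day 21. Het lay above WT at day 21 without overlap, and at day 14 only replicate 1 of Het (below replicate 1 of WT) broke the order. The log2 fold change was 1.27 ± 0.20 (SE, adjusted p = 0.00139). *Ccl19*, which guides dendritic and T cells to lymph nodes through *Ccr7*, was called at 1.26 ± 0.38 (SE, adjusted p = 0.0359) from a mean of 11.9 counts per library. The monocyte chemoattractants were not called. They gave 0.76 ± 0.27 for *Ccl2* (SE, adjusted p = 0.0662), 0.57 ± 0.29 for *Ccl7*, 0.54 ± 0.40 for *Ccl12* and 0.77 ± 0.49 for *Ccl8* on the log2 scale. With the replicate number as a block, *Ccl2* and *Ccl3* passed the test as well (0.86 ± 0.27, SE, adjusted p = 0.0314 and 0.81 ± 0.24, SE, adjusted p = 0.0246).

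**Figure D1:**
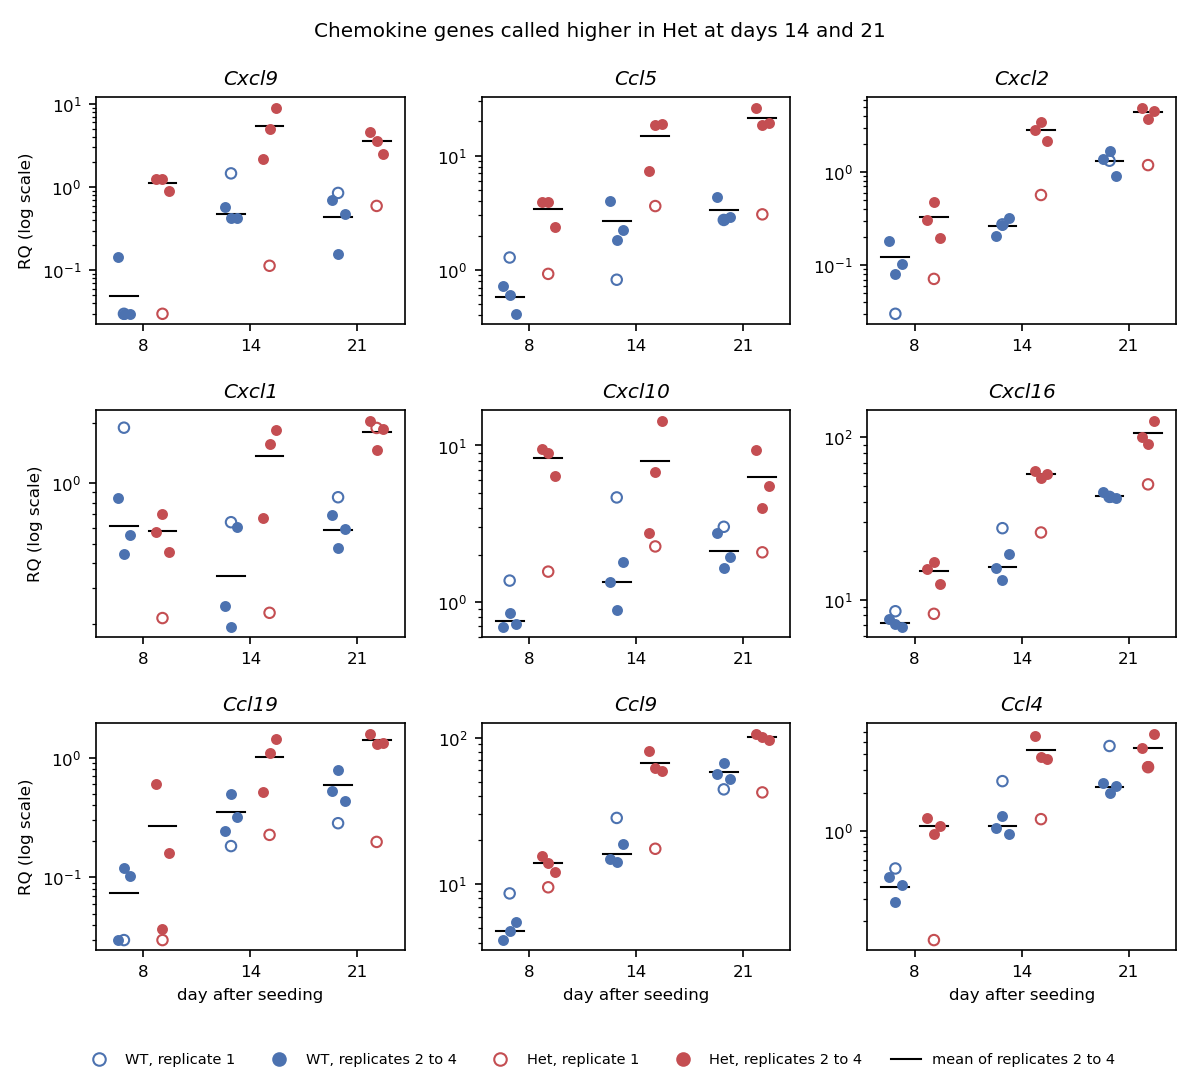
Relative quantity (RQ, log scale) by day after seeding for the 9 chemokine genes called higher in Het at days 14 and 21, with 1 point per library, WT in blue and Het in red, replicate 1 as open circles, and bars at the mean of replicates 2 to 4. Libraries at or under an RQ of 0.03 are drawn at 0.03. At day 14 the 3 filled Het points lie above all 3 filled WT points in each panel, and the open Het circle lies below the open WT circle for *Cxcl9*, *Cxcl10*, *Cxcl1*, *Cxcl16*, *Ccl9* and *Ccl4*.

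The number of calls depended on the replicates used. Leaving out replicate 1 from all groups raised the number of chemokine genes called from 9 to 15 higher and 1 lower, with 17.2% of all genes higher and 22.2% lower. Leaving out replicate 2, 3 or 4 left 2, 2 and 0 higher and 0 lower, and the share of all genes called higher fell alike, to 0.731%, 0.61% and 0.384%. Within replicates 2 to 4, day 14 alone gave 14 higher and 0 lower (9.82% and 9.59% of 18490 genes) and day 21 alone gave 13 higher and 2 lower, *Cxcl12* and *Ccl28* (11.7% and 15.5% of 18736 genes). In such fits a gene can pass the filter on low counts through Het alone, as *Cxcl2* did at day 14 (38, 95 and 48 counts in Het, 5, 7 and 9 in WT). With 4 libraries against 4, day 14 alone gave 0 calls (0.0871% and 0.098% of all genes) and day 21 alone gave 2 higher, *Cxcl1* and *Cxcl16* (1.42% and 0.551%).

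At day 8 no gene of any kind was called between the genotypes among 18222 tested (0% in each direction), so 0 of the 16 chemokine genes tested were. At an unadjusted p under 0.05, 7 chemokine genes were higher and 3 lower, against 9.97% of all genes in either direction, and DESeq2 called 5 higher and 2 lower. The blocked fit called *Cxcl10* (2.99 ± 0.42, SE, adjusted p = 0.0301) and *Ccl2* (1.44 ± 0.23, SE, adjusted p = 0.0338) higher and *Cxcl5* (-1.90 ± 0.21, SE, adjusted p = 0.0175) lower. The shares of all genes called by DESeq2 and by the blocked fit are not given here, so these counts show nothing particular to chemokines. In the individual libraries the difference was plain for *Cxcl10*, with RQ of 1.37, 0.694, 0.847 and 0.724 for WT and 1.57, 9.48, 8.98 and 6.43 for Het. All Het libraries were above all WT libraries, replicate 1 by the least. RQ of *Ccl2* was 5.92, 3.18, 3.39 and 3.97 for WT and 7.68, 12.2, 12.4 and 10.2 for Het, also without overlap, and that of *Ccl5* was 1.29, 0.731, 0.605 and 0.414 for WT and 0.925, 3.95, 3.90 and 2.36 for Het, where replicate 1 fell among the WT libraries. *Cxcl9* was barely detected in WT, at 0, 0.146, 0 and 0, and gave 0, 1.25, 1.25 and 0.904 in Het. *Cxcl5*, another neutrophil attractant, went the other way, with RQ of 8.66, 1.90, 2.26 and 3.55 for WT and 1.78, 0.810, 0.662 and 0.775 for Het.

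Without replicate 1, 11 of 19 tested chemokine genes were called higher and 4 lower in Het at day 8, against 4.55% and 14.2% of 18347 genes. With all replicates, 16 were tested. *Cxcl9*, *Ccl3* and *Ccl6* passed the filter on low counts only here, and only through Het. Their counts in replicates 2 to 4 were at most 8 in WT and at least 11 in Het, so their calls rest partly on that selection. The largest log2 fold changes were those of *Cxcl9*, for which 1 of the 3 WT libraries had any count, at 4.40 ± 0.61 (SE, adjusted p = 0.00125), *Cxcl10* at 3.45 ± 0.21 (SE, adjusted p = 4.38e-05) and *Ccl5* at 2.54 ± 0.28 (SE, adjusted p = 0.000396). The 4 lower genes were *Cxcl5*, *Cxcl12*, *Ccl25* and *Cxcl14*. The Het effect at days 14 and 21 was also set against that at day 8. No chemokine gene of 22 passed the edgeR test of this difference, in which 0.166% of 20434 genes were higher and 0.00489% lower. DESeq2 called 0 as well, and 2 were higher and 1 lower at an unadjusted p under 0.05, against 851 and 287 of all genes. Without replicate 1 the difference was called for *Cxcl1* (1.90 ± 0.47, SE, adjusted p = 0.0285) and *Cxcl5* (1.89 ± 0.49, SE, adjusted p = 0.0344), whose levels in Het relative to WT were greater at the later days.

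The genotype difference itself differed between replicate 1 and replicates 2 to 4. A fit over all 24 libraries with 1 mean per genotype and day was given a term for replicate 1 and its interaction with genotype, a test added after the values had been seen. Of 22 chemokine genes, 12 had a higher signed Het to WT log2 fold change in replicates 2 to 4 than in replicate 1 and 0 a lower one, against 3.19% and 2.54% of 20434 genes (4.34% and 2.25% with TMM scaling). At an unadjusted p under 0.05 there were 15 and 2, against 1698 and 2109 of all genes, and DESeq2 called 15 and 0. The median difference over the 22 was 1.81, and over all genes tested it was -0.01, both as log2. The highest was that of *Cxcl9*, at 4.99 ± 1.01 (SE, adjusted p = 0.00679), followed by *Ccl8* at 3.54 ± 0.77 (SE, adjusted p = 0.0122), which was at 0 in Het replicate 1 at days 8 and 14, and *Cxcl10* at 3.07 ± 0.60 (SE, adjusted p = 0.00548). *Cxcl16* (1.40 ± 0.19, SE, adjusted p = 0.000700) and *Ccl2* (1.83 ± 0.28, SE, adjusted p = 0.00103) had smaller errors. *Cxcl14* was called as well because it was less reduced in Het in replicates 2 to 4, and *Ccl4*, *Ccl6*, *Cxcl2*, *Ccl7*, *Ccl3* and *Ccl9* were, at 1.64 to 2.23.

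Within replicates 2 to 4, averaged over the days, 14 chemokine genes were called higher in Het and 1 (*Cxcl12*) lower, against 12.7% and 23% of all genes. In replicate 1, with 1 library per genotype and day and the spread taken from all libraries, 0 were higher and 1 (*Cxcl14*) lower, against 0.0147% and 0.00979%, and at an unadjusted p under 0.05 there were 0 higher and 3 lower. The monocyte chemoattractants show the contrast at the level of single libraries. RQ of *Ccl2* at day 14 was 3.62, 3.20 and 5.55 for WT and 9.61, 11.9 and 13.9 for Het in replicates 2 to 4, and 13.2 for WT and 5.10 for Het in replicate 1. The WT library of replicate 1 lay within the range of the Het libraries of the others. *Ccl7* gave 2.04, 1.74 and 3.41 for WT and 7.08, 5.40 and 7.34 for Het in replicates 2 to 4, and 6.58 and 2.38 in replicate 1. In the means of replicates 2 to 4, 15, 16 and 17 of the 22 tested genes were higher in Het at days 8, 14 and 21, with median Het to WT ratios of 2.66, 2.94 and 1.80. In replicate 1 the numbers were 8, 5 and 8, with median ratios of 0.876, 0.552 and 0.904. At day 8, genes without a count in WT have no ratio and are left out. These were *Ccl8* in replicates 2 to 4, and *Ccl8*, *Ccl19*, *Cxcl2* and *Cxcl9* in replicate 1. Of these, *Ccl8* in replicates 2 to 4 and *Cxcl2* in replicate 1 had a count in Het. Averaged over the days, 7974 of all 20434 genes had a positive fitted log2 fold change in replicates 2 to 4, and 8254 in replicate 1.

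**Figure D2:**
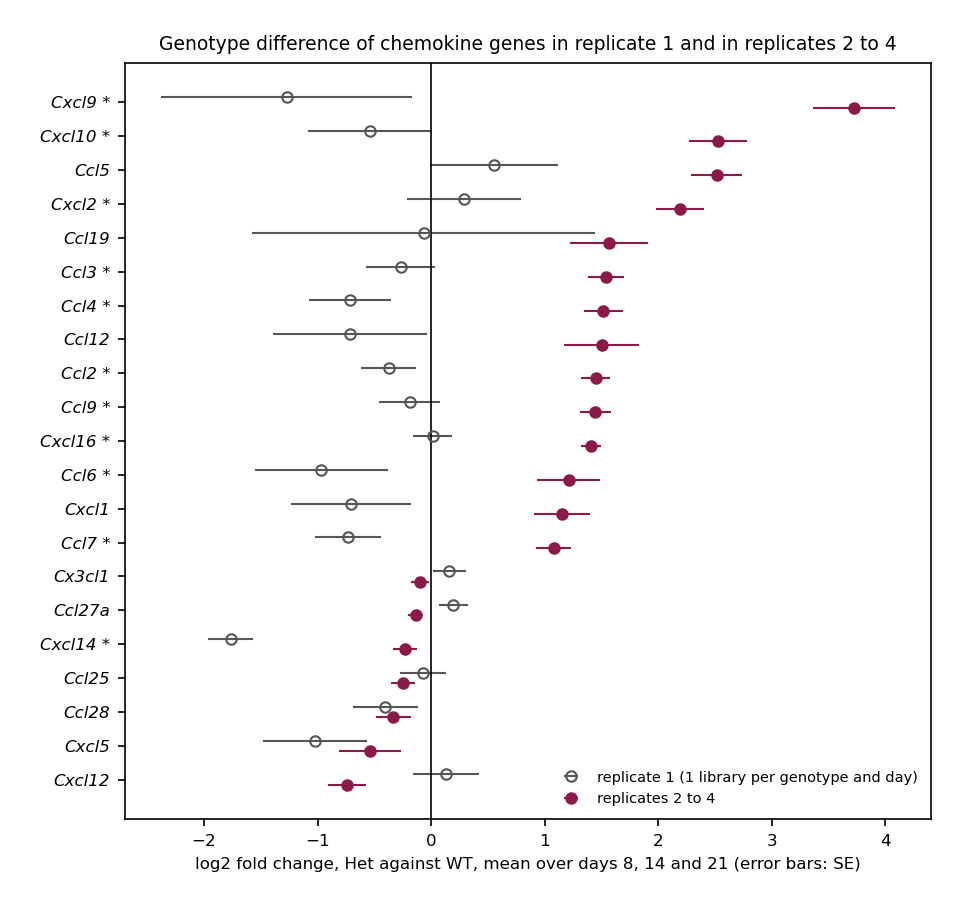
Fitted log2 fold change of Het against WT, averaged over days 8, 14 and 21, with SE bars, for 21 of the 22 tested chemokine genes in replicate 1 (open grey) and in replicates 2 to 4 (filled). *Ccl8* is left out, and its value in replicate 1 had an SE of 19.2. Few counts also limit drawn values of replicate 1. *Ccl19* (SE 1.51) had at most 3 counts per library there, and *Cxcl9* (SE 1.10) at most 6 per Het library. An asterisk marks genes whose difference between the replicates was called. In replicates 2 to 4 *Cxcl9* lies farthest to the right, at 3.72, and in replicate 1 *Cxcl14* lies farthest to the left, at -1.77.

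The number of these calls depended most on day 14. Without day 14, 3 of the 12 calls were left (*Cxcl16*, *Ccl2* and *Cxcl14*), and the share of all genes called was 0.17% higher and 0.175% lower. The WT library of replicate 1 at day 14 was high for many members, and without it 8 chemokine genes were called (0.856% of all genes higher and 1.23% lower).

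The 3 chemokine genes with the most counts did not follow the inflammatory ones. The mean RQ of *Cxcl12* was lower in Het in replicates 2 to 4 on every day and not in replicate 1. At day 8 its RQ was 221, 209 and 179 for WT and 112, 98.4 and 120.3 for Het in replicates 2 to 4, and 133 and 141 in replicate 1. At day 14 the values in replicates 1 to 4 were 651, 576, 621 and 615 for WT and 761, 169.6, 533 and 483 for Het, and at day 21 860.5, 942, 939 and 869.6 for WT and 926, 678, 652 and 329 for Het. The Het libraries were less alike than the WT ones, with replicate 2 low at day 14 and replicate 4 low at day 21. The latter library also had the highest summed macrophage markers (20656) and the lowest summed OB markers (113804) of all day 21 libraries. Over replicates 2 to 4 the log2 fold change was -0.74 ± 0.17 (SE, adjusted p = 0.00162). With all libraries at days 14 and 21 it was -0.41 ± 0.23 (SE, adjusted p = 0.234), and the difference between replicates 2 to 4 and replicate 1 was -0.87 ± 0.33 (SE, adjusted p = 0.141).

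*Cx3cl1* did not pass the test between the genotypes in any replicate set. Its log2 fold change at days 14 and 21 was -0.05 ± 0.09 (SE, adjusted p = 0.780), and all libraries lay between RQ of 84.2 and 163. *Cxcl14*, a chemokine of epithelial and stromal cells, differed most in replicate 1. In that replicate its RQ in WT was 59.3, 134 and 142 at days 8, 14 and 21, and in Het it was 21.2, 27.1 and 48.3. In replicates 2 to 4 it was 40.4 to 46.3 in WT and 30.6 to 39.7 in Het at day 8, without overlap, and the genotypes overlapped at days 14 and 21. The log2 fold change was -1.77 ± 0.20 (SE, adjusted p = 0.000368) in replicate 1 and -0.23 ± 0.11 (SE, adjusted p = 0.102) in replicates 2 to 4, and their difference was 1.54 ± 0.23 (SE, adjusted p = 0.000868). The ligands of *Ccr10*, *Ccl27a* and *Ccl28*, and the *Ccr9* ligand *Ccl25* gave -0.11 ± 0.10, -0.43 ± 0.23 and -0.15 ± 0.09 (log2, SE) between the genotypes at days 14 and 21, and none was called.

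**Figure D3:**
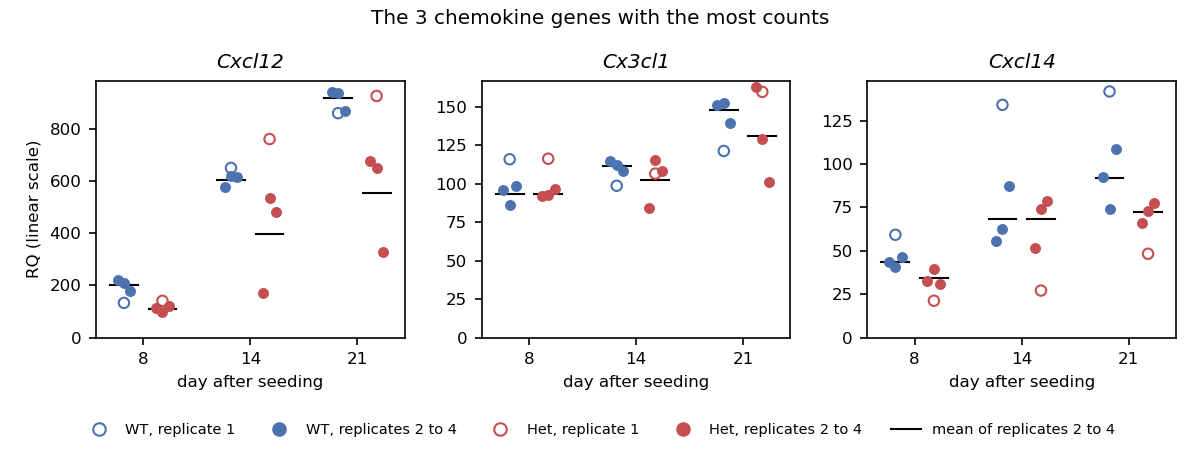
Relative quantity (RQ, linear scale from 0) of *Cxcl12*, *Cx3cl1* and *Cxcl14* by day after seeding, 1 point per library, WT in blue and Het in red, replicate 1 as open circles, bars at the mean of replicates 2 to 4. *Cxcl12* rises from day 8 onward and is lower in the filled Het points, and for *Cxcl14* the open WT and Het circles are farthest apart.

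As the cultures matured, most of the tested members rose. At days 14 and 21 against day 8, averaged over the genotypes, 15 of 22 chemokine genes were called higher and 0 lower (0 at an unadjusted p under 0.05 and 0 by DESeq2), against 40.9% and 17.4% of 20434 genes. This background depends on the scale, being 27.4% and 32.8% with TMM scaling, where the median of all genes moved from 0.16 to -0.02 and 14 chemokine genes were called, all higher. *Cxcl12* rose by 2.13 ± 0.21 (SE, adjusted p = 1.11e-08) on the log2 scale, from RQ of 133, 221, 209 and 179 at day 8 to 860.5, 942, 939 and 869.6 at day 21 in WT. Apart from *Ccl8*, the highest log2 fold changes were those of *Ccl6*, at 4.16 ± 0.45 (SE, adjusted p = 5.97e-08), and *Ccl3*, at 3.34 ± 0.27 (SE, adjusted p = 8.83e-10). *Ccl8* had 1 count in the 8 libraries of day 8 and 256 in the 16 libraries of days 14 and 21, a ratio of 151 per housekeeping count with an exact 95% interval of 26.9 to 6005 that covers counting error only. *Cxcl2*, *Cxcl9*, *Ccl9*, *Ccl19*, *Ccl4*, *Cxcl16*, *Ccl5*, *Ccl12* and *Cxcl14* rose by 1.00 to 2.92. *Ccl27a* (0.36) and *Cx3cl1* (0.30) rose little, and *Cx3cl1* lost its call with TMM scaling (adjusted p = 0.159). *Cxcl10*, *Ccl2*, *Cxcl1*, *Cxcl5*, *Ccl7*, *Ccl25* and *Ccl28* did not pass, with log2 fold changes of -0.22 to 0.57.

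From day 14 to day 21, 7 chemokine genes were called higher and 0 lower (0 at an unadjusted p under 0.05, 0 by DESeq2), against 13.3% and 5.94% of 19839 genes (11.4% and 10.9% with TMM scaling). These were *Ccl8* (2.31 ± 0.51, SE, adjusted p = 0.00445), *Ccl6* (1.76 ± 0.33, SE, adjusted p = 0.00163), *Cxcl2*, *Ccl9*, *Cxcl16*, *Ccl3* and *Cx3cl1* (0.40 ± 0.09, SE, adjusted p = 0.00690). The rise of *Ccl6* in replicates 2 to 4 of WT was from 1.30, 1.00 and 1.81 to 5.63, 10.5 and 5.99, and in Het from 4.17, 3.83 and 3.96 to 11.5, 10.8 and 11.8. In replicate 1 it went from 2.65 to 4.54 in WT and from 0.793 to 3.17 in Het. Without replicate 2, 3 or 4, 3, 3 and 4 chemokine genes were called higher, with 8.22%, 6.03% and 6.52% of all genes. *Cxcl9* and *Cxcl10* gave log2 fold changes of -0.46 ± 0.55 and -0.10 ± 0.42 (SE), neither called.

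Markers of macrophages moved with part of the inflammatory chemokines. With maturation all 17 markers were called higher, while *Cxcl10*, *Ccl2*, *Ccl7*, *Cxcl1* and *Cxcl5* were not called. The list held *Lyz2*, *Mrc1*, *Csf1r* and *C1qc* as its most counted genes, and none of its 17 genes was at 0 in all libraries. Of the 17, 15 were called higher in Het at days 14 and 21 (median log2 fold change 1.04, 7.26% of all genes), all 17 at days 14 and 21 against day 8 (3.90, 40.9% of all genes), and all 17 had a higher Het to WT fold change in replicates 2 to 4 than in replicate 1 (1.75, 3.19% of all genes). In replicates 2 to 4 their summed RQ was 261 to 318 for WT and 837 to 1165 for Het at day 8. It was 1649 to 2819 for WT and 7845 to 8442 for Het at day 14, and 7082 to 8174 for WT and 12963 to 20656 for Het at day 21. In replicate 1 it was 516 for WT and 435 for Het at day 8, 5300.4 and 3666 at day 14, and 7365 and 9379 at day 21. At day 14 Het was above WT in replicates 2 to 4 and below it in replicate 1 for this sum, as it was for *Ccl2*, *Ccl9* and *Ccl4*. At day 21 the sum was higher in Het in replicate 1, while all of these genes were lower. RQ there was 11.6 in WT and 10.6 in Het for *Ccl2*, 44.3 and 42.3 for *Ccl9*, and 4.63 and 3.17 for *Ccl4*. The part of macrophage RNA in the chemokine differences was not tested. Of the other cell types, neutrophil (1 of 8 tested) and lymphocyte markers were scarce, with 6 of 8 and 5 of 6 genes under 10 counts in every library, and 5 of 8 OB markers were lower in Het at days 14 and 21 (8.88% of all genes).

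Chemokine counts were also set against the summed counts of the macrophage markers in the same library, as a description with no test. On that scale the Het to WT ratio of the means in replicates 2 to 4 lay nearer to 1 than per housekeeping count for *Ccl4*, *Ccl9* and *Ccl2*. For *Ccl4* it was 0.872, 0.953 and 0.989 at days 8, 14 and 21, for *Ccl9* 0.817, 1.08 and 0.887, and for *Ccl2* 0.936, 0.760 and 1.08. Per housekeeping count, the same ratios of *Ccl9* were 2.88, 4.22 and 1.72. For *Cxcl9*, *Cxcl10* and *Ccl5* the ratio of the means was above 1 on each day, though the libraries of the genotypes overlapped at day 14 for all 3 and at day 21 for *Cxcl10*. *Cxcl9* was 6.35, 2.88 and 4.17 times as high, *Cxcl10* 3.05, 1.60 and 1.52 times, and *Ccl5* 1.59, 1.41 and 3.28 times. In replicate 1 the ratios at days 14 and 21 were 0.112 and 0.548 for *Cxcl9*, 0.703 and 0.540 for *Cxcl10*, 6.38 and 0.879 for *Ccl5*, and 0.891 and 0.749 for *Ccl9*. All of them but that of *Ccl5* at day 14 were below 1. At day 8 the ratio in replicate 1 was 1.35 for *Cxcl10*, 1.31 for *Ccl9* and 0.853 for *Ccl5*, and *Cxcl9* had no count in either genotype. In replicates 2 to 4, *Cxcl2* was below 1 at day 8 (0.721) and 2.74 and 1.70 at the later days. Of the 22 genes in replicates 2 to 4, 4, 1 and 4 had Het above WT without overlap at days 8, 14 and 21, and 11, 10 and 6 had Het below WT, among them *Cxcl12*, *Cx3cl1*, *Cxcl14*, *Ccl25*, *Ccl27a* and *Ccl28* on every day. The marker sum itself was 3.56, 3.79 and 2.05 times as high in Het on these days. A gene equal between the genotypes per housekeeping count therefore falls below WT on this scale. The share over all genes on this scale was not computed, so these counts show nothing particular to chemokines. *Lyz2* gives most of the marker sum, and without it the ratios of *Cxcl9* were 6.48, 3.19 and 4.40, and those of *Ccl9* 0.794, 1.20 and 0.947. Which cells made the chemokine transcripts was not tested.

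**Figure D4:**
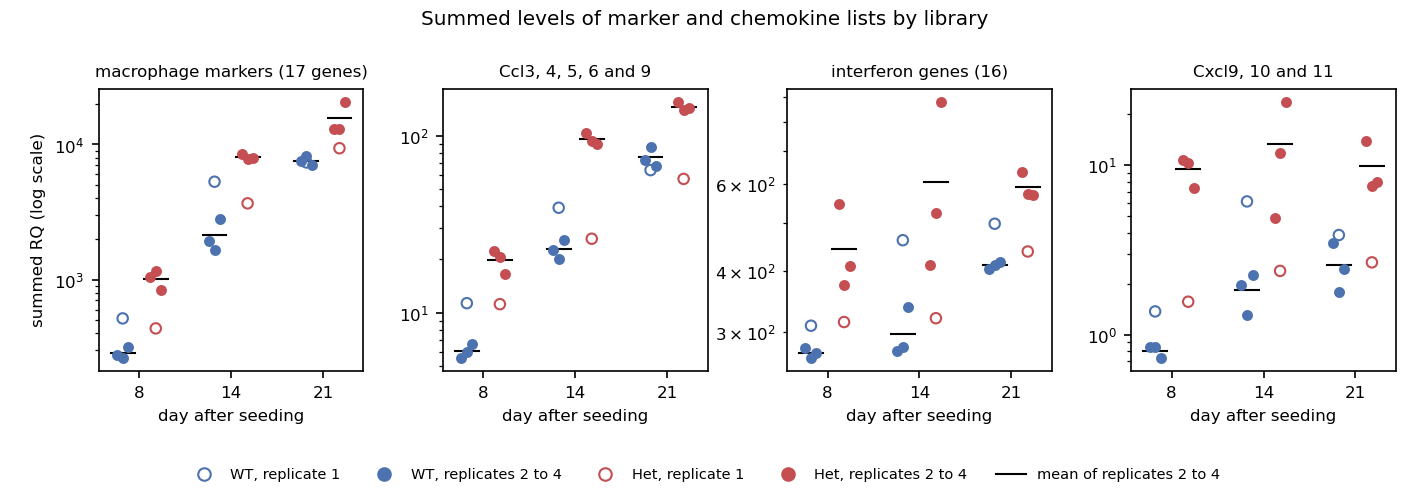
Summed RQ (log scale) by day after seeding for 17 macrophage markers, for *Ccl3*, *Ccl4*, *Ccl5*, *Ccl6* and *Ccl9*, for 16 interferon response genes and for *Cxcl9*, *Cxcl10* and *Cxcl11*, 1 point per library, WT in blue and Het in red, replicate 1 as open circles, bars at the mean of replicates 2 to 4. In all 4 panels the filled Het points lie above the filled WT points on each day, and at day 14 the open WT circle lies above the open Het circle.

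Chemokine receptors were examined beside the ligands. Of 23 receptor and scavenger genes, 14 were tested and 3 were higher in Het at days 14 and 21, against 7.26% of all genes. Among them were *Cx3cr1*, the receptor of *Cx3cl1* (1.31 ± 0.23, SE, adjusted p = 0.00249), and *Cxcr4*, the receptor of *Cxcl12* (1.52 ± 0.35, SE, adjusted p = 0.00944). Both also had a higher Het to WT fold change in replicates 2 to 4 than in replicate 1, by the same test. *Ackr3*, which takes up *Cxcl12* without classical signalling and was the most counted of the list, gave -0.40 ± 0.19 (SE, adjusted p = 0.169). RQ of *Cx3cr1* in replicates 2 to 4 at day 14 was 16.6 to 32.0 for WT and 76.0 to 78.8 for Het, and in replicate 1 it was 52.2 in WT and 39.3 in Het. The *Cxcr3* gene had a mean of 8.42 counts and was not called (0.93 ± 0.31, SE, adjusted p = 0.0518), and *Cxcr2* was nearly absent. With maturation, 12 of 16 tested receptor genes rose and 1 (*Cxcr1*) fell, against 40.9% and 17.4% of all genes. The related *Pf4* (platelet factor 4), whose symbol lies outside the naming pattern, was 0.91 ± 0.24 higher in Het at days 14 and 21 (log2, SE, adjusted p = 0.0183).

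Genes of the pathways known to induce chemokines were examined beside them. Of 16 interferon response genes, 5 were called higher in Het at days 14 and 21 and 0 lower (median log2 fold change 0.89), against 7.26% and 8.88% of all genes. They were *Bst2* (0.74 ± 0.20, SE, adjusted p = 0.0237), *Irf1* (0.48 ± 0.09, SE, adjusted p = 0.00471), *Gbp2* (1.08 ± 0.18, SE, adjusted p = 0.00189), *Oasl2* and *Ifi44*. In the comparison of the Het effect between replicates 2 to 4 and replicate 1, 12 of 16 were called, all higher in replicates 2 to 4 (3.19% of all genes). Their summed RQ in replicates 2 to 4 at day 14 was 275 to 338 for WT and 411 to 880.4 for Het, with replicate 4 of Het the highest, as it was for *Cxcl9* and *Cxcl10*. In replicate 1 it was 461 for WT and 320.3 for Het. Of 26 genes that encode NF-kB subunits, feedback inhibitors and inflammatory targets, 22 were tested and 8 were higher in Het at days 14 and 21 (median 0.32, against the same 7.26%), with small changes for the subunits *Nfkb2* (0.37 ± 0.04, SE, adjusted p = 0.000150) and *Relb* (0.49 ± 0.06, SE, adjusted p = 0.000213) and a larger one for *Tnf* (1.27 ± 0.22, SE, adjusted p = 0.00208). *Csf1*, the most counted of the list and the growth factor of macrophages, gave 0.01 ± 0.07 (SE, adjusted p = 0.925). In the test of the Het effect between the replicate sets 6 of the 22 were called, all higher in replicates 2 to 4, among them *Tnf* (1.55 ± 0.41, SE, adjusted p = 0.0286) and *Nfkbia* (0.53 ± 0.14, SE, adjusted p = 0.0254).

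Replicate 1 was last compared with replicates 2 to 4 across both genotypes. Of 22 chemokine genes, 3 were higher (*Cxcl5* at 1.46 ± 0.26, *Ccl28* at 0.75 ± 0.16 and *Ccl27a* at 0.21 ± 0.08, log2, SE) and 3 lower (*Ccl19* at -2.02 ± 0.55, *Ccl5* at -1.51 ± 0.37 and *Cxcl2* at -1.30 ± 0.32, log2, SE), against 33% and 6.8% of all genes. The call of *Ccl27a* was lost with TMM scaling, under which the median of all genes moved from 0.11 to -0.03. This average hid opposite shifts, since in WT alone 11 chemokine genes were higher and 0 lower in replicate 1 (29% and 6.3% of 19124 genes), and in Het alone 1 was higher and 13 lower (17.2% and 5.87% of 19086).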

How the data were processed

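RNASeq of polyA RNA from 24 cultures gave 1 table of raw read counts per gene for each library, as deposited by the authors. Per the labels, the submitters' processing notes name cutadapt 2.5, STAR 2.73a, Subread, featureCounts 1.6.4 and mm10. Whether strand was used in counting, and how multi-mapping reads were treated, is not given in the sources used here. Libraries carried no molecular identifiers, so intervals and floors cover counting error only. Gene coordinates came from GENCODE vM21, which held 54587 of the 55335 gene IDs.

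Groups and replicate numbers came from the labels. Counts were scaled to the geometric mean of *Actg1*, *Actb*, *Mrfap1* and *Sdha* and tested with edgeR 4.0.16 (R 4.3.3, filterByExpr, glmQLFit and glmQLFTest), with Benjamini-Hochberg adjustment over all genes tested and calls at an adjusted p under 0.05. Genotypes were compared at days 14 and 21 with day as covariate and at day 8, days were compared over both genotypes, and replicate 1 was compared with replicates 2 to 4. Same-numbered libraries deviated together from their group means (correlations over 20434 genes of 0.252 to 0.779 in 12 pairs). The median over 36 pairs of different number was -0.083, with pairs of replicate 1 and another number as low as -0.651. Among replicates 2 to 4, pairs of different number also correlated, at 0.0953 to 0.498. The number thus sets replicate 1 apart more clearly than it pairs replicates 2 to 4. Values with the replicate number as a block are given where they changed a call. No 2 libraries of a group agreed within sampling noise (chi-square per degree of freedom of at least 4.78 over 36 pairs).

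The fits were tested on simulated data with known changes. Alternatives were TMM scaling, DESeq2 1.42.0 size factors and its Wald test, total counts, other filters on low counts, the block, and leaving out replicates or libraries. Named were members with a mean of at least 50 counts or a call in any comparison, and up to 4 of the most counted genes of each other list. Other genes of those lists were named after their values were seen. Single genes of those lists that are withheld are not reported here. The members and lists were chosen with earlier results of these data known.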

Additional observations from a re-analysis of the deposited data

Results flagged for a closer look

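Among 131 groups of 4 libraries examined over 22 named chemokine genes, 14 held a library far from the other three, and 11 of the 14 were replicate 1. Chance alone marks about 1 in 20 groups. All values are RQ. In WT, replicate 1 was high for *Ccl2* at day 21 (11.6, the others 6.98 to 7.23), *Ccl3* at day 14 (4.93, the others 1.43 to 1.77), *Ccl4* at day 21 (4.63, the others 2.01 to 2.37), *Ccl6* at day 8 (0.686, the others 0 to 0.103), *Ccl8* at day 14 (0.731, the others 0.0771 to 0.107) and *Cxcl9* at day 14 (1.46, the others 0.424 to 0.570). In Het, replicate 1 was low for *Ccl6* at day 14 (0.793, the others 3.83 to 4.17) and at day 21 (3.17, the others 10.8 to 11.8), *Ccl9* at day 21 (42.3, the others 96.4 to 106) and *Cxcl16* at day 14 (26.0, the others 56.1 to 62.3), and high for *Cxcl5* at day 8 (1.78, the others 0.662 to 0.810). The other three were *Ccl5* in replicate 2 of WT at day 21 (4.37, the others 2.74 to 2.92), *Cxcl9* in replicate 2 of WT at day 8 (0.146, the others at 0) and *Ccl8* in replicate 4 of Het at day 8 (0.0323, the others at 0), and the last rests on 1 count.

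The Het effect differed between replicates 2 to 4 and replicate 1 for 12 chemokine genes by the edgeR test of the difference. As log2, the differences were 4.99 for *Cxcl9*, 3.54 for *Ccl8*, 3.07 for *Cxcl10*, 2.23 for *Ccl4*, 2.18 for *Ccl6*, 1.91 for *Cxcl2*, 1.83 for *Ccl2*, 1.81 for *Ccl7*, 1.81 for *Ccl3*, 1.64 for *Ccl9*, 1.54 for *Cxcl14* and 1.40 for *Cxcl16*. Replicate 1 is a single library per genotype and day, so its genotype difference cannot be told apart from a difference between wells or cell pools. Cells were pooled by genotype, so in replicates 2 to 4 the genotype difference also cannot be told apart from a difference between cell pools.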

How the results depend on the processing

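The count of 9 chemokine genes called between the genotypes at days 14 and 21 became 0 with day 14 alone, 2 with day 21 alone, 14 and 15 with replicates 2 to 4 of day 14 or day 21 alone, and 0 to 16 with a replicate or library left out. At day 8 the count of 0 became 7 with DESeq2, 3 with the replicate block, 7 with replicate 1 as a covariate and 0 to 15 with leave-outs. The change of the Het effect from day 8 gave 0 to 2 with leave-outs. For days 14 and 21 against day 8, 15 became 9 with a mean of at least 50 counts. From day 14 to day 21, 7 became 0 in Het alone and 3 to 9 with leave-outs. For replicate 1 against the others, 6 became 2 with a mean of at least 50 counts, 11 in WT alone, 14 in Het alone and 5 to 10 with leave-outs, of which 10 was without replicate 1 of WT at day 14. For the Het effect by replicate set, 12 became 3 without day 14 and 8 to 15 with leave-outs. The replicate block otherwise changed calls only for *Ccl2* and *Ccl3* at days 14 and 21. The share of all genes called moved with the setting too. At days 14 and 21 it was 0.384% higher without replicate 4 and 17.2% higher without replicate 1. At day 8 it was 0% with all libraries and, without replicate 1, 4.55% higher and 14.2% lower. Changes in these counts therefore show nothing particular to chemokines.

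Signs turned for *Cx3cl1* at days 14 and 21 against day 8 with total counts (log2 -0.0018), and in the comparison of replicate 1 for *Cxcl10* (1.11) and *Ccl4* (1.01) in WT alone and *Ccl2* (-0.75), *Ccl8* (-1.94), *Ccl3* (-0.74) and *Cxcl14* (-0.85) in Het alone. The cause was not tested. Depth limits the members with few counts (*Cxcl1*, *Cxcl2*, *Cxcl9*, *Ccl8*, *Ccl19*), most of all in replicate 1.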
